A study of Drosophila melanogaster with 9 samples.

Results

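Ovaries of 2 fly lines with different edits in the same gene were set against each other, namely 3 libraries of Pcif1 M6stop and 3 of Pcif1 F9ΔNLS, out of 9 libraries in the series. The libraries were chosen by the genotype in their labels. Pcif1 M6stop carries a frameshift in the part of the gene that encodes the nuclear localization signal, and reading runs into a premature stop. Pcif1 F9ΔNLS lost the signal with the reading frame kept, and its protein has 829 amino acids. The remaining 3 libraries are of Pcif1 BG02557, a line with the P-element P{GT1} in the first intron of the gene, against which both alleles had been backcrossed after editing in a w1118 background. All lines are Drosophila melanogaster, total RNA was depleted of ribosomal RNA, and per the labels 3 pairs of ovaries were taken per line. The labels do not state whether the mutant females were homozygous, their age, or how many edited founders each line goes back to, and the P-element of the control lies in the gene under study.

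Pcif1 binds the phosphorylated tail of the largest subunit of RNA polymerase II. In mammals the protein methylates the first transcribed adenosine next to the messenger RNA cap, whereas the fly protein is known to lack that activity. A nuclear localization signal lets importins carry a protein into the nucleus. Both edits lie in the part that encodes this signal: M6stop brings a premature stop, and F9ΔNLS keeps the reading frame. The values used here are of RNA, so the protein made in either line was not measured.

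The comparison rests on a table of genes with, for each mutant line, a log2 fold change over BG02557 and an adjusted p, and a mean normalized count over all libraries. Its 9 columns of single libraries carry codes that match no sample label, so they were not assigned to lines and no test of M6stop directly against F9ΔNLS, no value per library and no replicate spread is given. Instead the 2 listed changes of each gene were put side by side, and the difference was taken as M6stop minus F9ΔNLS, in which the control cancels where values are not shrunk. The 2 comparisons share the control libraries, so nothing is read from calls they have in common. A gene is said to rise, fall or be called at a DESeq2 adjusted p under 0.05 as the authors computed it. Of 17199 genes listed, 10662 had an adjusted p, and these are the tested genes. Values appear to be shrunk toward 0, more so in M6stop, where the median size of a listed change was 0.0301, than in F9ΔNLS, where it was 0.107. Of the called genes, 45 in M6stop and 29 in F9ΔNLS were listed at under 0.1 in size, which does not give the size of their change. Oocyte and follicle-cell genes had high mean normalized counts (35690 for osk, 42170 for Yp1), and testis genes were close to 0 (1.98 for betaTub85D, 0.123 for Mst87F). In bulk tissue, fewer cells of a type and less RNA per cell cannot be told apart.

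The edited gene itself separated the lines. Pcif1 (listed as CG11399, FBgn0037021; minus strand of 3L, 20780350 to 20786197 in BDGP6) was at -2.51 in M6stop (DESeq2 adjusted p listed as 0) and at 0.02 in F9ΔNLS (DESeq2 adjusted p = 0.83), per the authors' deposited table. The difference of these values was -2.53, or 5.79-fold more RNA in F9ΔNLS than in M6stop. Taken with the mean over all libraries, the listed changes imply about 799 normalized counts in M6stop, 4623 in F9ΔNLS and 4555 in BG02557. Implied levels of this kind assume 3 libraries per line and unshrunk changes, carry no error, and are given only for genes with a mean of at least 50 whose call in each line was either below an adjusted p of 0.01 or at 0.5 and above. Since values appear shrunk, an implied level close to that of BG02557 does not show that a line kept the control level. Pex14 and an antisense RNA gene overlap Pcif1 on the other strand, and the strand setting of the counting is not given in the sources used here. So the transcript fell in M6stop, and no change passed the test in F9ΔNLS.

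More genes were called in F9ΔNLS than in M6stop. In M6stop 371 genes rose (3.48% of the tested genes) and 2.04% fell, together 5.52%. In F9ΔNLS 1233 genes rose (11.6%) and 1264 fell (11.9%), together 23.4%. A call in M6stop alone was found for 204 genes and one in F9ΔNLS alone for 2112 genes. Such a gene is not shown to differ between the mutant lines, and for 1331 of the 2112 the M6stop adjusted p was at least 0.5. Opposite calls were found for 5 genes (0.0469%), all upward in M6stop and downward in F9ΔNLS. The shared control libraries move both values of a gene the same way, so nothing is read from how few these are. At a stricter adjusted p of 0.01, 1 gene remained called in opposite directions.

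**Figure D1:**
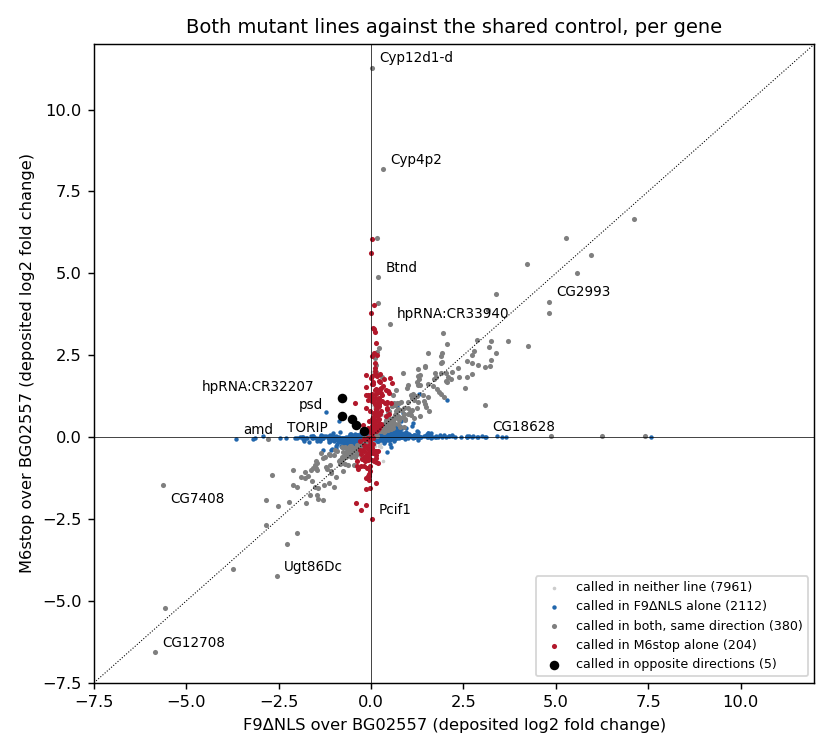
Deposited log2 fold change over BG02557 in M6stop (vertical axis) against that in F9ΔNLS (horizontal axis), 1 point per tested gene, coloured by the calls at an adjusted p under 0.05; the dotted line marks equal values. The 5 genes called in opposite directions (black) lie above and left of 0, and many genes lie along an axis because 1 of their values is listed near 0.

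The 5 genes with opposite calls encode a hairpin RNA, an eggshell protein, a centriole protein and less well described products. The long hairpin RNA gene hpRNA:CR32207 (3L from 19477329), of a class that is cut into endogenous small interfering RNAs, was listed at 1.20 in M6stop (DESeq2 adjusted p = 1.1e-17) and at -0.77 in F9ΔNLS (DESeq2 adjusted p = 2.2e-07), per the authors' deposited table. Its implied levels were 1292 normalized counts in M6stop, 329 in F9ΔNLS and 563 in BG02557, so the control lay between the mutants. It was the gene that remained at the stricter threshold.

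psd (palisade), a gene of the vitelline membrane around the egg, was at 0.63 in M6stop (DESeq2 adjusted p = 0.022) and at -0.78 in F9ΔNLS (DESeq2 adjusted p = 0.0022), per the authors' deposited table. CG8303 was given at 0.55 in M6stop (DESeq2 adjusted p = 0.022) and at -0.52 in F9ΔNLS (DESeq2 adjusted p = 0.015), per the authors' deposited table. For ana2, which encodes a factor of centriole duplication, the authors' deposited table has 0.36 in M6stop (DESeq2 adjusted p = 0.035) and -0.40 in F9ΔNLS (DESeq2 adjusted p = 0.012). CG6770 had the smallest gap, with 0.20 in M6stop (DESeq2 adjusted p = 0.029) and -0.18 in F9ΔNLS (DESeq2 adjusted p = 0.030), per the authors' deposited table. The hairpin gene, CG8303 and ana2 overlap a gene on the other strand (CR42842, CG5089 and Sec31), so their reads are uncertain there.

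Listed values at least 1 apart on the log2 scale were found for 219 genes called in at least 1 line, with M6stop above F9ΔNLS for 127 (1.19%) and below it for 92 (0.863%). Of the 219, 64 were called in M6stop alone, 123 in F9ΔNLS alone, 29 in both lines in 1 direction and 3 in opposite directions. In 144 of them a value was listed at under 0.1 in size, so the gap is mostly the size of the other value. Over all tested genes the differences had a median of 0.00019, and 5% to 95% of them ran between -0.35 and 0.38.

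Several genes were listed higher in M6stop because of a rise there. The P450 genes Cyp12d1-d (11.27 in M6stop, 0.04 in F9ΔNLS) and Cyp4p2 (8.17 in M6stop, 0.32 in F9ΔNLS) had the largest gaps, per the authors' deposited table, and both were called upward in both lines, so how far they rose in F9ΔNLS cannot be read from such small values. The copy Cyp12d1-p is nearly identical to Cyp12d1-d, so reads may have been divided between them wrongly. Btnd was at 4.89 in M6stop (DESeq2 adjusted p = 1.2e-08) and 0.19 in F9ΔNLS (DESeq2 adjusted p = 0.048), per the authors' deposited table. MtnC, a metallothionein gene, was at 3.32 in M6stop (DESeq2 adjusted p = 0.019) and 0.04 in F9ΔNLS (DESeq2 adjusted p = 0.41), per the authors' deposited table. The glutathione S-transferase gene GstE1 had 1.87 in M6stop (DESeq2 adjusted p = 0.0077) and 0.02 in F9ΔNLS (DESeq2 adjusted p = 0.89), per the authors' deposited table, with implied levels of 349 normalized counts in M6stop, 96.5 in F9ΔNLS and 95.3 in BG02557. A second hairpin RNA gene, hpRNA:CR33940, rose in both lines, by 3.46 in M6stop (DESeq2 adjusted p = 6.7e-53) and by 0.51 in F9ΔNLS (DESeq2 adjusted p = 0.022), per the authors' deposited table. CG1143, CG17999 and Ggamma30A, a G protein gamma subunit gene, completed this side, at 2.60, 2.58 and 2.10 in M6stop and 0.16, 0.09 and 0.11 in F9ΔNLS, per the authors' deposited table.

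Other genes were listed higher in M6stop because they fell in F9ΔNLS. TORIP, which encodes a torsin-interacting protein of the nuclear envelope, was at -0.02 in M6stop (DESeq2 adjusted p = 0.93) and at -2.46 in F9ΔNLS (DESeq2 adjusted p = 1.3e-103), per the authors' deposited table. Its implied levels were 677 normalized counts in M6stop, 125 in F9ΔNLS and 687 in BG02557. For amd, related to Dopa decarboxylase and known from cuticle formation, the authors' deposited table has -0.06 in M6stop (DESeq2 adjusted p = 0.18) and -3.65 in F9ΔNLS (DESeq2 adjusted p = 1.1e-13). Sema2b, a secreted semaphorin gene, was at -0.03 in M6stop (DESeq2 adjusted p = 0.69) and -2.07 in F9ΔNLS (DESeq2 adjusted p = 2.3e-06), per the authors' deposited table. CG7408 fell in both lines, at -1.46 in M6stop (DESeq2 adjusted p = 0.016) and -5.63 in F9ΔNLS (DESeq2 adjusted p = 1.4e-18), per the authors' deposited table. This gene lies at -2.90 Mb from Pcif1 along 3L, and TORIP at -0.98 Mb.

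Besides Pcif1 itself, most genes listed lower in M6stop by the largest gaps were ones that rose in F9ΔNLS. CG18628 was at 0.01 in M6stop (DESeq2 adjusted p = 0.52) and 3.07 in F9ΔNLS (DESeq2 adjusted p = 0.0073), per the authors' deposited table. Fbp1, whose product takes up storage proteins into the larval fat body, was at -0.0009 in M6stop (DESeq2 adjusted p = 0.98) and 2.61 in F9ΔNLS (DESeq2 adjusted p = 0.017), per the authors' deposited table. Further F9ΔNLS values, per the authors' deposited table were 3.09 for CG42329, which also rose in M6stop (0.99), 2.18 for the ribosomal RNA precursor pre-rRNA:CR45846, 2.11 for CG44098, 1.98 for CG32814 and 1.85 for CG11638. The last 2 overlap each other on the same strand, so their reads are not independent. nolo, CG4822 and the odorant-binding protein gene Obp99b followed, at -0.006, 0.01 and -0.02 in M6stop and 1.76, 1.74 and 1.63 in F9ΔNLS, per the authors' deposited table. Ugt86Dc, a sugar-conjugating enzyme gene, fell in both lines, to a listed -4.25 in M6stop (DESeq2 adjusted p = 4.8e-12) and -2.55 in F9ΔNLS (DESeq2 adjusted p = 9.3e-06), per the authors' deposited table. This corresponds to implied levels of 15.8 normalized counts in M6stop, 51.6 in F9ΔNLS and 302 in BG02557.

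**Figure D2:**
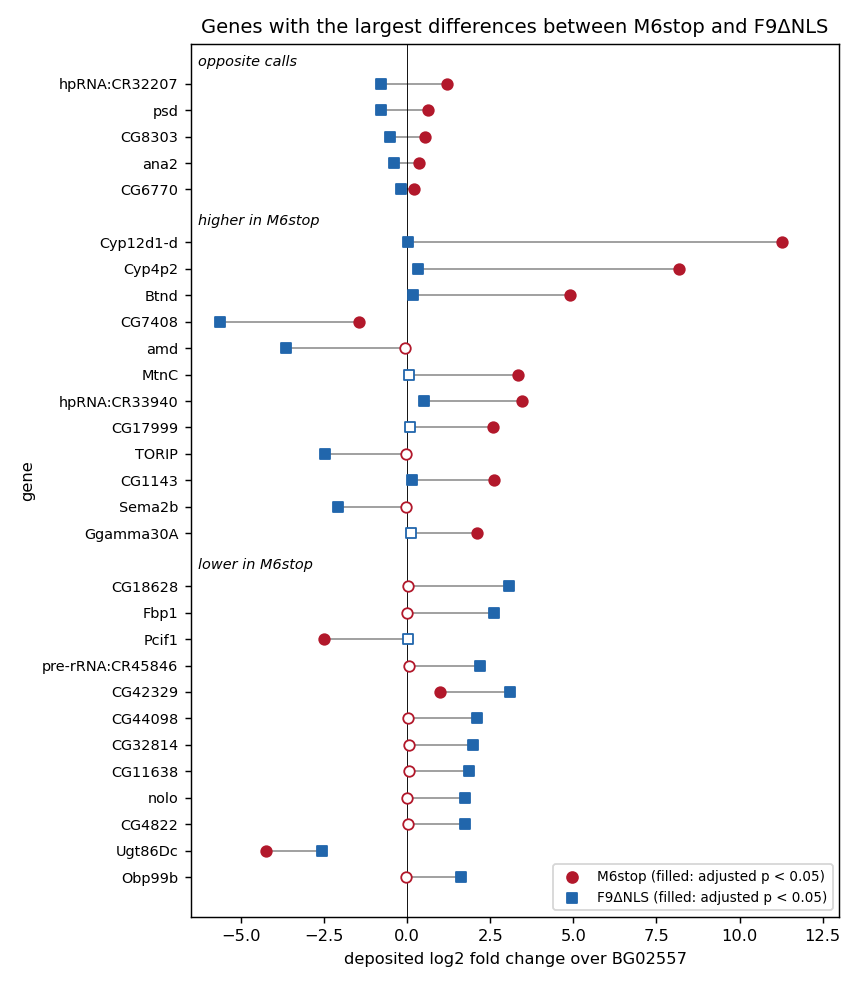
Deposited log2 fold changes over BG02557 (horizontal axis) in M6stop (circles) and F9ΔNLS (squares) for the 5 genes with opposite calls and the 12 genes with the largest difference in each direction; filled symbols passed an adjusted p of 0.05. The gap is widest for Cyp12d1-d, at 11.27 in M6stop and 0.04 in F9ΔNLS, and in many genes the open symbol sits near 0.

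At the other end, some genes were listed at nearly the same value in both lines. These values share the control libraries, so their likeness is given as a description. Among genes listed at 1 or more in size in both lines, CG3394 was at -1.52 in M6stop and -1.53 in F9ΔNLS, per the authors' deposited table, which implies 481 normalized counts in M6stop, 480 in F9ΔNLS and 1383 in BG02557. MtnA, another metallothionein gene, was at 1.264 in M6stop and 1.246 in F9ΔNLS, per the authors' deposited table, unlike MtnC. Idgf2, a chitinase-like growth factor gene (-1.56 in M6stop, -1.45 in F9ΔNLS), Ada, for adenosine deaminase (-1.78 in M6stop, -1.64 in F9ΔNLS), and dpr6, of the immunoglobulin superfamily (-2.69 in M6stop, -2.85 in F9ΔNLS), fell by similar listed amounts, per the authors' deposited table. CG5167 and CG6325 completed the 6 closest falls, and CG11261, CG8008, CG15186, CG9259 and the noncoding pncr014:3L, at 1.13 to 1.95 in M6stop and 1.13 to 1.89 in F9ΔNLS, per the authors' deposited table, the 6 closest rises.

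Gene groups are described by their counts of calls and their medians, with no test of a group or of a difference between the lines. Each count is to be read against the shares over all tested genes, of which 3.48% rose and 2.04% fell in M6stop, and 11.6% rose and 11.9% fell in F9ΔNLS. A group with more calls in F9ΔNLS than in M6stop therefore shows, by that alone, only what most genes show. Group medians are of listed values over the tested members, beside medians of -0.0007 in M6stop and 0.0040 in F9ΔNLS over all tested genes. Since values in M6stop appear more strongly shrunk, a median near 0 there does not show that the group kept its level.

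Genes of ribosome production rose in F9ΔNLS, and none passed the test in M6stop. Nucleolar proteins and RNA polymerase I make and modify ribosomal RNA, and of 19 such genes tested 0 were called in M6stop (unadjusted p-values are not in the table), whereas 18 rose in F9ΔNLS. All 19 had a listed value lower in M6stop than in F9ΔNLS, with a median of 0.03 in M6stop and 0.40 in F9ΔNLS, and the lowest M6stop adjusted p among the 18 was 0.17. Fib, the methyltransferase of box C/D small nucleolar particles, was at 0.10 in M6stop (DESeq2 adjusted p = 0.46) and 0.66 in F9ΔNLS (DESeq2 adjusted p = 3.2e-10), per the authors' deposited table. RpI135, a core subunit of RNA polymerase I, was at 0.12 in M6stop and 0.58 in F9ΔNLS (DESeq2 adjusted p = 8.2e-08), and the nucleolar phosphoprotein gene Nopp140 at 0.14 in M6stop and 0.63 in F9ΔNLS (DESeq2 adjusted p = 7.7e-14), per the authors' deposited table. CG4038, a box H/ACA particle protein gene, was at 0.03 in M6stop and 0.67 in F9ΔNLS, per the authors' deposited table.

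Other parts of protein synthesis moved less. Of 36 translation initiation factor genes 1 rose in M6stop and 12 in F9ΔNLS, and of 20 aminoacyl-tRNA synthetase genes 0 in M6stop and 9 in F9ΔNLS. eIF4G1, the scaffold of the cap-binding complex, was at 0.05 in M6stop (DESeq2 adjusted p = 0.76) and 0.55 in F9ΔNLS (DESeq2 adjusted p = 5.2e-10), per the authors' deposited table, with implied levels of 16106 normalized counts in M6stop, 22873 in F9ΔNLS and 15608 in BG02557. eIF4H1 (0.06 in M6stop, 0.50 in F9ΔNLS) and IleRS (0.09 in M6stop, 0.37 in F9ΔNLS) rose in F9ΔNLS, per the authors' deposited table. Of 73 mitochondrial ribosomal protein genes 1 rose in M6stop, where 3.48% of all tested genes rose. In F9ΔNLS 10 of them rose, close to the share of 11.6% over all tested genes, so nothing is read from that count. Cytoplasmic ribosomal protein genes were rarely called, with 1 fall in M6stop and 2 in F9ΔNLS among 88, and medians of -0.01 in M6stop and 0.01 in F9ΔNLS.

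Most origin licensing genes, and 11 of 22 cyclin and cell cycle genes, fell in F9ΔNLS. Before S phase the origin recognition complex, Cdc6 and dup load the Mcm helicase onto DNA, a step that geminin blocks. Of 24 licensing and firing genes 1 fell in M6stop (Mcm5, -0.31, DESeq2 adjusted p = 0.047) and 18 fell in F9ΔNLS, per the authors' deposited table, while Cdc7 rose in F9ΔNLS (0.23). The median was -0.09 in M6stop and -0.41 in F9ΔNLS, and 22 of the 24 were listed higher in M6stop than in F9ΔNLS. Orc5 was at -0.10 in M6stop (DESeq2 adjusted p = 0.45) and -0.81 in F9ΔNLS (DESeq2 adjusted p = 2.0e-05), per the authors' deposited table. Orc3 was listed at -0.05 in M6stop and -0.62 in F9ΔNLS, per the authors' deposited table, with implied levels of 1372 normalized counts in M6stop, 919 in F9ΔNLS and 1416 in BG02557. Orc1 (-0.11 in M6stop, -0.62 in F9ΔNLS) and Orc4 (-0.08 in M6stop, -0.60 in F9ΔNLS) fell in F9ΔNLS as well, per the authors' deposited table.

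Of 22 cyclin and cell cycle genes 1 rose and 0 fell in M6stop, and 1 rose and 11 fell in F9ΔNLS. The mitotic kinase gene aurB (-0.12 in M6stop, -0.80 in F9ΔNLS), fzy, an activator of the anaphase-promoting complex (-0.12 in M6stop, -0.60 in F9ΔNLS), Cdk1 (-0.06 in M6stop, -0.44 in F9ΔNLS) and the meiotic phosphatase gene twe (-0.07 in M6stop, -0.44 in F9ΔNLS) fell in F9ΔNLS, per the authors' deposited table. Replication-dependent histone genes, which supply chromatin during S phase, fell for 5 of 23 tested copies in M6stop and 14 in F9ΔNLS (1 rose in M6stop and 2 in F9ΔNLS), with medians of -0.06 in M6stop and -0.62 in F9ΔNLS. The widest gaps were among the linker histone copies, such as His1:CG33810 (-0.11 in M6stop, -1.82 in F9ΔNLS) and His1:CG33822 (-0.12 in M6stop, -1.46 in F9ΔNLS), per the authors' deposited table. The copies are nearly identical, so reads cannot be split between them with certainty. Slbp, which binds the hairpin at the end of histone messenger RNAs, was at -0.14 in M6stop (DESeq2 adjusted p = 0.32) and -0.37 in F9ΔNLS (DESeq2 adjusted p = 0.0043), per the authors' deposited table.

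**Figure D3:**
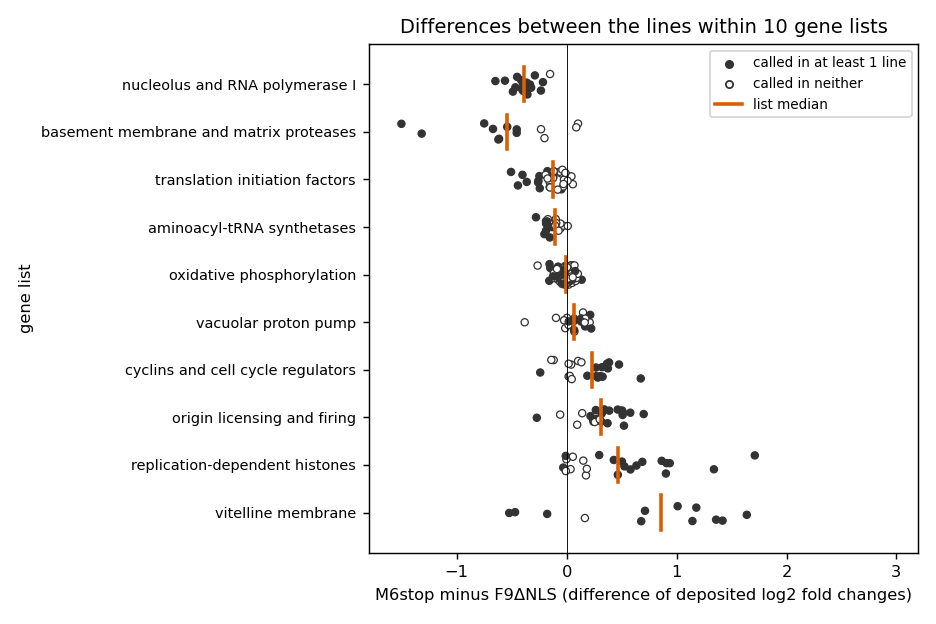
Difference of the deposited log2 fold changes, M6stop minus F9ΔNLS (horizontal axis), for each tested member of 10 gene lists; filled points were called in at least 1 line and bars mark list medians. All 19 nucleolar genes lie left of 0, and 22 of 24 origin licensing genes lie right of it.

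Germline lists held calls in both directions in F9ΔNLS, where 11.6% of all tested genes rose and 11.9% fell. In the late oocyte and the meiotic lists only the falls were above these shares. Among 18 genes that act in the late oocyte or at egg activation 1 fell in M6stop, and 8 fell and 2 rose in F9ΔNLS. Of 28 meiotic recombination and synapsis genes 0 were called in M6stop, and 9 fell and 2 rose in F9ΔNLS. cort, which activates the anaphase-promoting complex in oocytes (-0.08 in M6stop, -0.66 in F9ΔNLS), and c(3)G, the transverse filament of the synaptonemal complex (-0.07 in M6stop, -0.65 in F9ΔNLS), fell in F9ΔNLS, per the authors' deposited table. Messenger RNAs that are localized in the oocyte went both ways in F9ΔNLS: nos (-0.04 in M6stop, -0.60 in F9ΔNLS) fell, and osk (0.002 in M6stop, 0.36 in F9ΔNLS), grk (-0.03 in M6stop, 0.40 in F9ΔNLS) and orb, a translational regulator (0.004 in M6stop, 0.40 in F9ΔNLS), rose, per the authors' deposited table. In all, of 20 oocyte axis genes 0 were called in M6stop, and 6 rose and 3 fell in F9ΔNLS. tut, a partner of Bam in male germ cells, had the widest gap of its list, at -0.12 in M6stop (DESeq2 adjusted p = 0.23) and -1.39 in F9ΔNLS (DESeq2 adjusted p = 1.5e-05), per the authors' deposited table.

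piRNA genes, which silence transposons in the germline, split by member. Of 31 tested 1 rose and 3 fell in M6stop, and 6 rose and 6 fell in F9ΔNLS. qin, a nuage protein gene, was at 0.06 in M6stop (DESeq2 adjusted p = 0.65) and 0.67 in F9ΔNLS (DESeq2 adjusted p = 3.4e-16), and krimp, another, at -0.11 in M6stop and -0.50 in F9ΔNLS, per the authors' deposited table. aub (0.11 in M6stop, 0.44 in F9ΔNLS) and armi (0.02 in M6stop, 0.35 in F9ΔNLS) rose in F9ΔNLS, per the authors' deposited table.

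Eggshell lists differed in their listed values: the listed gap between the lines was wide in the vitelline membrane list and small in the chorion list. Follicle cells secrete the vitelline membrane first and the chorion after it. Of 12 tested vitelline membrane genes 2 rose and 0 fell in M6stop, and 3 rose and 7 fell in F9ΔNLS, with medians of 0.09 in M6stop and -0.68 in F9ΔNLS. The list holds psd, described above, and 6 of its members were listed at least 1 higher in M6stop than in F9ΔNLS. Vm26Ac (0.02 in M6stop, -1.62 in F9ΔNLS), Vm32E (0.03 in M6stop, -1.33 in F9ΔNLS) and Vml (0.08 in M6stop, -1.10 in F9ΔNLS) fell in F9ΔNLS, per the authors' deposited table. The 3 that rose in F9ΔNLS were fs(1)M3 (0.005 in M6stop, 0.53 in F9ΔNLS), clos (0.08 in M6stop, 0.55 in F9ΔNLS) and fs(1)N (0.12 in M6stop, 0.29 in F9ΔNLS). Vm26Ab rose in M6stop (0.84) and was not called in F9ΔNLS (0.13), per the authors' deposited table. Of 17 chorion and related eggshell genes 0 were called in M6stop, and 1 rose and 4 fell in F9ΔNLS, with medians of -0.01 in M6stop and -0.06 in F9ΔNLS. Fcp3C, Cp7Fb and Cp7Fc were called as falls in F9ΔNLS at small listed values (-0.16, -0.11 and -0.11), per the authors' deposited table. How far chorion RNA differed between the lines therefore cannot be read from these values. dec-1, an eggshell assembly gene, stood apart from that list, with 0.01 in M6stop (DESeq2 adjusted p = 0.90) and -1.83 in F9ΔNLS (DESeq2 adjusted p = 3.0e-04), per the authors' deposited table. Its implied levels were 41437 normalized counts in M6stop, 11548 in F9ΔNLS and 41120 in BG02557.

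Yolk protein genes were called mostly in M6stop. Yp3 was at 1.10 in M6stop (DESeq2 adjusted p = 9.3e-04) and 0.04 in F9ΔNLS (DESeq2 adjusted p = 0.86), which implies 39586 normalized counts in M6stop, 18957 in F9ΔNLS and 18491 in BG02557, per the authors' deposited table. Yp1 was at 1.05 in M6stop (DESeq2 adjusted p = 0.0039) and 0.38 in F9ΔNLS (DESeq2 adjusted p = 0.097), per the authors' deposited table. Yp2 rose in both lines, by 0.83 in M6stop and 0.71 in F9ΔNLS, per the authors' deposited table. Fat body also makes yolk proteins, and the lipoprotein genes apolpp (1.29 in M6stop, -0.13 in F9ΔNLS) and Apoltp (1.67 in M6stop, 0.04 in F9ΔNLS) rose in M6stop alone, per the authors' deposited table. Over 20 fat body and lipoprotein genes 4 rose and 1 fell in M6stop, and 6 rose and 1 fell in F9ΔNLS. Fbp1, Fbp2 (0.0004 in M6stop, 2.74 in F9ΔNLS), Obp99b and Lsd-1 (0.01 in M6stop, 1.19 in F9ΔNLS) rose in F9ΔNLS alone, per the authors' deposited table. The part of fat body tissue in these values was not tested.

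The vacuolar proton pump acidifies endosomes and lysosomes, and of 21 subunit genes 9 rose in M6stop and 3 in F9ΔNLS, with medians of 0.24 in M6stop and 0.12 in F9ΔNLS and a median difference of 0.07. Whether the counts differ between the lines was not tested. Vha68-2, a catalytic subunit gene, was at 0.31 in M6stop (DESeq2 adjusted p = 0.014) and 0.09 in F9ΔNLS (DESeq2 adjusted p = 0.49), and VhaSFD at 0.33 in M6stop and 0.12 in F9ΔNLS, per the authors' deposited table. Respiratory-chain genes, by contrast, had near-equal medians, 0.17 in M6stop and 0.19 in F9ΔNLS over 76 tested genes, with 25 rises in M6stop and 32 in F9ΔNLS. The widest gap among the called ones was that of ND-ACP (0.09 in M6stop, 0.25 in F9ΔNLS), per the authors' deposited table. Of 13 mitochondrial genome genes 2 rose in M6stop and 1 in F9ΔNLS.

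Most of the matrix genes and some of the muscle genes rose in F9ΔNLS. Basement membranes of laminin, collagen IV and perlecan wrap each egg chamber, and of 13 genes for them and their proteases 0 were called in M6stop and 9 rose in F9ΔNLS, with medians of about 0 in M6stop and 0.51 in F9ΔNLS. Pxn, a peroxidase that crosslinks collagen IV (0.11 in M6stop, 1.61 in F9ΔNLS), the matrix protease gene Mmp2 (-0.004 in M6stop, 1.31 in F9ΔNLS), Ppn (0.09 in M6stop, 0.84 in F9ΔNLS) and trol, for perlecan (-0.04 in M6stop, 0.63 in F9ΔNLS), rose in F9ΔNLS, per the authors' deposited table. Of 27 genes of the muscle sheath 6 rose in M6stop and 14 in F9ΔNLS, with medians of 0.08 in M6stop and 0.53 in F9ΔNLS. bt, a giant sarcomere protein gene, was at 0.16 in M6stop and 0.95 in F9ΔNLS, per the authors' deposited table. Hemocytes make matrix as well, and Hml, a hemocyte marker, rose by 2.14 in M6stop and by 3.09 in F9ΔNLS, per the authors' deposited table, while eater and NimC1 (mean normalized counts of 24.8 and 53.1) were called in neither line. Over 20 hemocyte and melanization genes 2 rose and 1 fell in M6stop, and 3 rose and 2 fell in F9ΔNLS. The part of muscle or hemocytes in the matrix values was not tested.

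Among 18 follicle cell fate and Notch genes 0 were called in M6stop and 7 rose in F9ΔNLS, and 17 of the 18 were listed lower in M6stop than in F9ΔNLS. The follicle cell factor gene tj (0.12 in M6stop, 0.53 in F9ΔNLS) and the adhesion genes Fas2 (0.29 in M6stop, 0.70 in F9ΔNLS) and Fas3 (-0.006 in M6stop, 0.48 in F9ΔNLS) were among them, per the authors' deposited table. One EGF receptor target moved in M6stop alone: kek1, an inhibitor of that receptor, was at -0.70 in M6stop (DESeq2 adjusted p = 0.0028) and 0.02 in F9ΔNLS (DESeq2 adjusted p = 0.94), per the authors' deposited table. Of 15 genes of that list 1 fell in M6stop, and 3 rose and 1 fell in F9ΔNLS. In steroid synthesis, shd, which makes the active form of ecdysone (0.06 in M6stop, 1.16 in F9ΔNLS), rose in F9ΔNLS, and Cyp18a1, which inactivates it (-0.76 in M6stop, 0.14 in F9ΔNLS), fell in M6stop, per the authors' deposited table. Of the 9 tested genes of the steroid list 1 fell in M6stop and 3 rose in F9ΔNLS. Besides shd these were spo (0.08 in M6stop, 0.70 in F9ΔNLS) and Eip55E (0.11 in M6stop, 0.32 in F9ΔNLS), per the authors' deposited table. Eip55E is currently named Cth, and its place among steroid synthesis genes is not shown here.

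Heat shock genes were called in both directions in F9ΔNLS, and antimicrobial peptide genes upward. Of 22 heat shock protein genes 3 rose and 0 fell in M6stop, and 4 rose and 6 fell in F9ΔNLS. The small heat shock genes Hsp26 (-0.05 in M6stop, -1.03 in F9ΔNLS) and Hsp23 (0.02 in M6stop, -1.03 in F9ΔNLS) fell in F9ΔNLS, per the authors' deposited table, and Hsp26 had implied levels of 17714 normalized counts in M6stop, 8950 in F9ΔNLS and 18297 in BG02557. Hsp70Ab was at 1.20 in M6stop (DESeq2 adjusted p = 0.016) and 0.21 in F9ΔNLS (DESeq2 adjusted p = 0.21), per the authors' deposited table, and Hsp70 copies share reads. The copy Hsp70Bc, at a mean normalized count of 32.0, was called upward in both lines. It was at 4.09 in M6stop (DESeq2 adjusted p = 1.1e-04) and 0.19 in F9ΔNLS (DESeq2 adjusted p = 0.016), per the authors' deposited table. Of 15 antimicrobial peptide genes 3 rose in M6stop and 6 in F9ΔNLS, at low counts: DptB (0.008 in M6stop, 3.64 in F9ΔNLS) and AttC (-0.002 in M6stop, 2.60 in F9ΔNLS) rose in F9ΔNLS, and AttA (1.63 in M6stop, 0.01 in F9ΔNLS) in M6stop, per the authors' deposited table. Of 74 P450 genes 9 rose and 4 fell in M6stop, where 3.48% of all tested genes rose and 2.04% fell. In F9ΔNLS 8 rose and 8 fell, close to the shares of 11.6% and 11.9% over all tested genes.

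Genes of the polymerase II tail and cap machinery had 0 rises and 1 fall in M6stop and 1 rise and 2 falls in F9ΔNLS among 21, and Cbp20, a subunit of the nuclear cap-binding complex, had the widest gap (-0.10 in M6stop, -0.37 in F9ΔNLS), per the authors' deposited table. Of 9 m6A writer and reader genes 0 were called in M6stop and 1, Mettl14 (-0.09 in M6stop, -0.36 in F9ΔNLS), fell in F9ΔNLS, per the authors' deposited table. The 35 proteasome genes had 1 fall in M6stop, and 1 rise and 3 falls in F9ΔNLS.

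**Figure D4:**
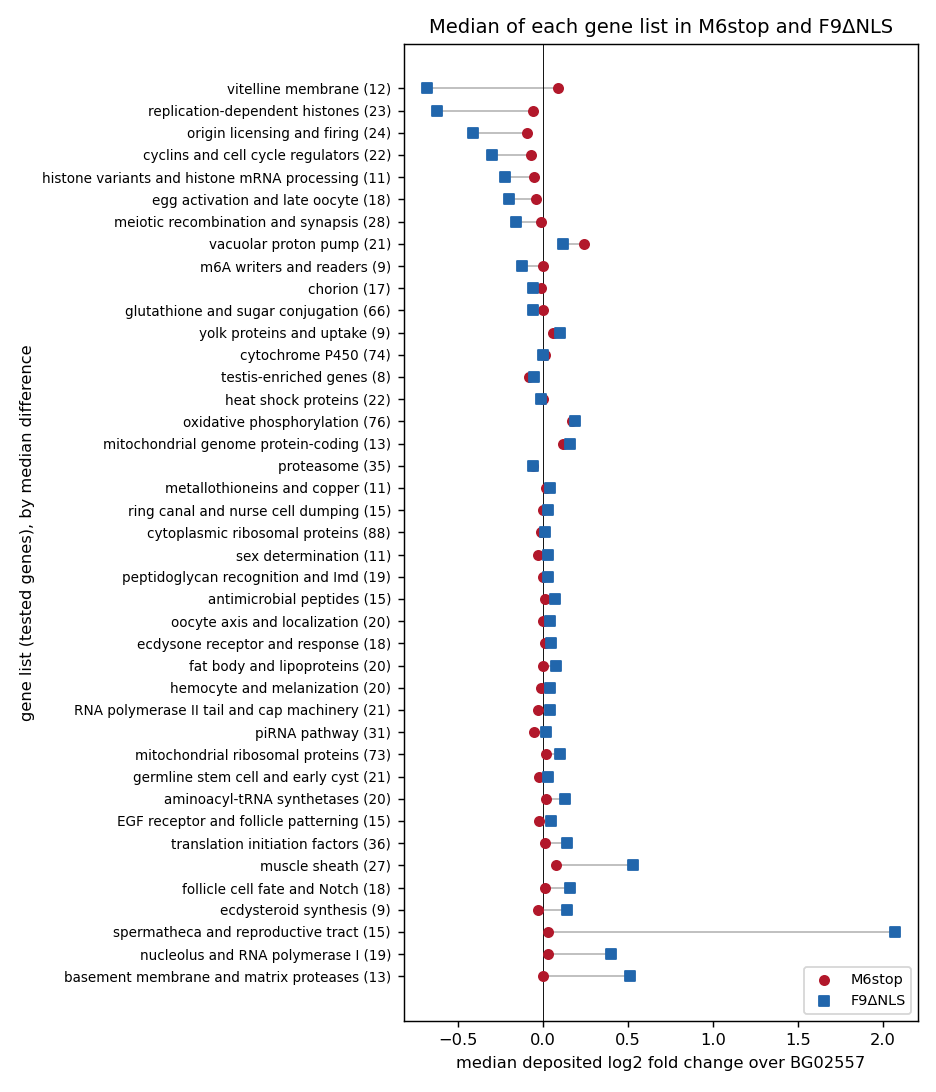
Median deposited log2 fold change over BG02557 (horizontal axis) in M6stop (circles) and F9ΔNLS (squares) for each gene list with at least 5 tested genes, ordered by the median difference; the number of tested genes is in parentheses. Vitelline membrane, histone and origin licensing medians lie lower in F9ΔNLS (-0.68, -0.62 and -0.41) than in M6stop (0.09, -0.06 and -0.09), and respiratory-chain medians nearly coincide (0.17 in M6stop, 0.19 in F9ΔNLS).

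Some wide gaps lie close to the edited gene, but the share of genes with such gaps there was near that elsewhere. Within 5 Mb of Pcif1, 669 genes were tested, of which 60 (8.97%) were called in M6stop and 183 (27.4%) in F9ΔNLS, against 5.30% in M6stop and 23.1% in F9ΔNLS among the 9908 other tested genes with a position. Listed values were at least 1 apart for 16 of the 669 (2.39%), Pcif1 among them, and 201 of the 9908 (2.03%). Of the hairpin genes, hpRNA:CR32207 lies at -1.31 Mb from Pcif1 and hpRNA:CR33940 close by, and another one, hpRNA:CR32205 at -1.36 Mb, was at -0.04 in M6stop (DESeq2 adjusted p = 0.75) and -0.65 in F9ΔNLS (DESeq2 adjusted p = 0.011), per the authors' deposited table. On the other side, 0.86 Mb away, Atox1, a copper chaperone gene, was at -1.31 in M6stop (DESeq2 adjusted p = 2.7e-11) and -0.06 in F9ΔNLS (DESeq2 adjusted p = 0.76), per the authors' deposited table, with implied levels of 356 normalized counts in M6stop, 845 in F9ΔNLS and 881 in BG02557. Its neighbour CG32444 (3L from 21636947) was at 1.47 in M6stop (DESeq2 adjusted p = 0.0011) and 0.14 in F9ΔNLS (DESeq2 adjusted p = 0.39), per the authors' deposited table. Away from this region, on 2L, the hairpin gene hpRNA:CR18854 rose in both lines, and its listed value was lower in M6stop. It was at 0.29 in M6stop (DESeq2 adjusted p = 0.036) and 0.79 in F9ΔNLS (DESeq2 adjusted p = 3.9e-10), per the authors' deposited table. Whether the lines carry different sequence near the edited gene was not tested.

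**Figure D5:**
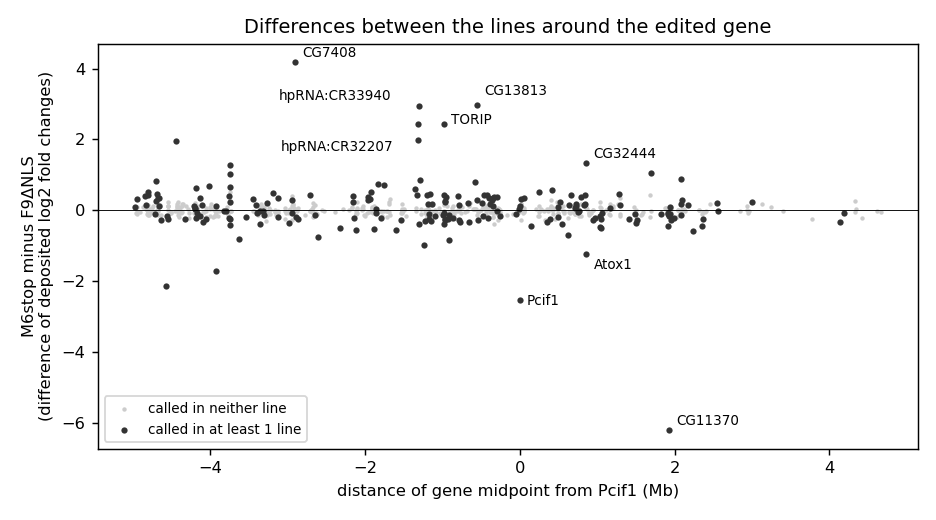
Difference of the deposited log2 fold changes, M6stop minus F9ΔNLS (vertical axis), against the distance from Pcif1 along 3L in Mb (horizontal axis) for the 669 tested genes within 5 Mb; dark points were called in at least 1 line. Pcif1 lies at -2.53, Atox1 below 0, and TORIP, hpRNA:CR32207 and hpRNA:CR33940 above 0.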

How the data were processed

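Ovary RNA of 3 lines was sequenced in 9 libraries. Per the submitters' processing notes, which give no roles, build BDGP6 was used with DESeq2 1.25.10, DESeq, Salmon 1.3.0 and R 3.6.3. The authors' deposited table holds, per the file headers, a mean normalized count (a signal value, gene counts over size factors), log2 fold changes of M6stop and F9ΔNLS over BG02557 (base 2 assumed), and adjusted p-values. The sources used here do not state depth per library or shrinkage. The 9 library columns, whose codes match no label, were not used, so the planned edgeR or limma test was not fitted.

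With Python 3.11.15 and pandas 2.3.3, the listed changes were classified at an adjusted p under 0.05 and subtracted, M6stop minus F9ΔNLS. The classification was checked on simulated data. Positions are from Ensembl release 115 (BDGP6), which held 17063 of 17199 identifiers. The members and the 42 gene lists were chosen with earlier results of these data known; 43 of 672 list entries were not found by name, and some genes are in several lists. Named genes are Pcif1, the 12 largest differences in each direction (mean 50 or more, called in at least 1 line), all opposite calls, the 6 closest rises and the 6 closest falls, and up to 4 called genes per list with the largest difference. Other genes were named after their values were seen. Many named genes overlap a gene on the other strand; strand setting unknown, their reads are uncertain there. The remaining lists are in the closing section.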

Additional observations from a re-analysis of the deposited data

How the results depend on the processing

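Opposite calls numbered 5, 1 at an adjusted p under 0.01 and 11 at one under 0.1. They were 5 with a mean of at least 50 or with listed values of at least 0.1 in both lines, and 4 without genes within 5 Mb of Pcif1. At an adjusted p under 0.01, 222 genes in place of 380 were called in both lines in the same direction, 128 in place of 204 in M6stop alone and 1272 in place of 2112 in F9ΔNLS alone. Listed values at least 1 apart held for 219 genes, for 123 with a mean of at least 50, for 75 with both values at least 0.1 in size (settings chosen after seeing the data), and for 32 called in both lines. They held for 604 genes at a difference of 0.5 and for 59 at one of 2. Of 42 lists, 17 had a median difference of at least 0.1 in size, and 36 when only called genes were kept. The medians of 27 lists moved by 0.1 or more when only called genes were kept, and 3 with a mean of at least 50. None of the 17 lists changed sign under these settings. Some of the other lists did when only called genes were kept. Examples are the polymerase II tail and cap machinery (from -0.05 to 0.12), ring canal (from -0.02 to 0.14) and sex determination lists (from -0.03 to 0.10). No paired analysis was possible because the library columns carry no label or replicate number, and for the same reason no library could be left out. Depth per library was not analysed here.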

Other observations

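Lists not described above are given by their counts. Of 11 histone variant and histone processing genes 1 fell in M6stop and 5 in F9ΔNLS. Of 66 glutathione and sugar conjugation genes 6 rose and 8 fell in M6stop, and 6 rose and 8 fell in F9ΔNLS. Of 11 metallothionein and copper genes 2 rose and 1 fell in M6stop, and 2 rose in F9ΔNLS. Of 18 ecdysone response genes 0 were called in M6stop, and 2 rose and 1 fell in F9ΔNLS. Of 19 peptidoglycan recognition and Imd genes 1 rose in M6stop, and 5 rose and 2 fell in F9ΔNLS. Of 15 ring canal genes 0 were called in M6stop, and 1 rose and 3 fell in F9ΔNLS. Of 11 sex determination genes 0 were called in M6stop, and 3 rose and 4 fell in F9ΔNLS. Among 21 genes of germline stem cells and early cysts 1 rose in M6stop, and 5 rose and 3 fell in F9ΔNLS. A list meant for testis genes, of which 8 of 25 were tested, had 1 rise (vis) and 1 fall in M6stop and 2 falls in F9ΔNLS. The falls were of dhd in both lines and of twe in F9ΔNLS. Both genes are also counted in lists above, dhd with the late oocyte and twe with the cell cycle. At a mean normalized count of 30326 for dhd and 1626 for twe, these falls are not read as falls of testis genes.

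The spermathecal proteases were called upward in both lines, 7 of 15 list members in M6stop and 10 in F9ΔNLS, with lower listed values in M6stop: Send1 was at 2.77 in M6stop and 4.25 in F9ΔNLS, and CG31681 at 2.16 in M6stop and 3.23 in F9ΔNLS, per the authors' deposited table. Of 23 small nuclear RNA genes 1 fell in M6stop and 6 in F9ΔNLS. On chromosome 4, of 90 tested genes 10 (11.1%) were called in M6stop and 28 (31.1%) in F9ΔNLS.

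Further wide gaps were found at mean normalized counts under 50. CG44142 was at -0.0003 in M6stop (DESeq2 adjusted p = 0.99) and 7.58 in F9ΔNLS (DESeq2 adjusted p = 0.0013), and CG43175 at 0.03 in M6stop (DESeq2 adjusted p = 0.034) and 7.42 in F9ΔNLS (DESeq2 adjusted p = 5.2e-06), per the authors' deposited table. In the other direction Ppt1 was at 6.06 in M6stop (DESeq2 adjusted p = 0.0063) and 0.02 in F9ΔNLS (DESeq2 adjusted p = 0.55), and CG15236 at 5.62 in M6stop (DESeq2 adjusted p = 6.9e-04) and -0.002 in F9ΔNLS (DESeq2 adjusted p = 0.97), per the authors' deposited table. These genes have mean normalized counts between 9.94 (CG15236) and 36.6 (CG43175).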
